A study of Mus musculus and Rattus norvegicus with 24 samples.

Results

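The microRNA genes of the Dlk1-Dio3 locus were followed in the brains of mice and rats subjected to stroke. The set is a list of 49 gene symbols, all on chromosome 12 of the mouse, and a gene entered it through its symbol in the platform annotation of each array. The members were chosen by measured values: microRNA genes of this locus stood among the falls of the mouse 2 h comparison, so that comparison is given below as a description. On the mouse array 36 of the 49 had a transcript cluster of their own (the probes summarised for 1 transcript), among 22180 gene symbols tested. A further 11 were read only by 8 clusters that they share with a host or neighbouring gene, and Mir299b and Mir496 had none. On the rat array 41 of the 49 had a cluster, among 18166 symbols. Both arrays measured 28 of them.

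The locus is imprinted, so that its genes are read from 1 parental chromosome only. Dlk1, Rtl1 and Dio3 are read from the paternal copy, while the long noncoding transcripts Meg3, Rian and Mirg, the RNA antisense to Rtl1 and the microRNAs along them come from the maternal copy. MicroRNA hairpins are cut out of such primary transcripts in the nucleus by Drosha with Dgcr8, exported by Xpo5, trimmed by Dicer and loaded on Argonaute proteins, where bases 2 to 8 of the mature strand, the seed, pair with target messages. The long run of hairpins from Mir379 to Mir410 is active in neurons, where Mef2 proteins are known to drive it in the rat, and miR-134 of this run is known to repress Limk1 in dendrites.

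The tissue was a small piece of the penumbra, the zone that borders the ischaemic core, taken from adult male animals from the side on which a filament had closed the middle cerebral artery permanently (pMCAO), or the matching region after sham surgery. The groups were C57BL/6 mice at 2 h after pMCAO and after sham surgery, C57BL/6 mice at 6 h after pMCAO and after sham surgery, and Sprague-Dawley rats at the same times with the same 2 operations. Mice were 8 to 10 and rats 8 to 12 weeks old, and with 1 array for each of 3 animals the 8 groups came to 24 arrays. The right artery was occluded in mice and the left in rats, all animals received isoflurane, and no transgene was involved. The arrays label whole transcripts, so a cluster reads RNA that spans the hairpin and does not tell the mature microRNA from its precursors. In such tissue fewer cells of a type and less RNA per cell cannot be told apart.

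Hairpins of 4 members are shown because they mark the range of the responses: Mir543, Mir154 and Mir382 lay more than 1 log2 unit below sham at 2 h in both species, and Mir673 was within 0.03 of sham in mouse. They are the mouse sequences of RefSeq on GRCm38.p6, plus strand, 5′ to 3′, and capitals mark the mature arms. Mir543 lies at chr12:109717258-109717333, Mir154 at chr12:109738433-109738498, Mir382 at chr12:109733771-109733846 and Mir673 at chr12:109571990-109572080.
Mir543: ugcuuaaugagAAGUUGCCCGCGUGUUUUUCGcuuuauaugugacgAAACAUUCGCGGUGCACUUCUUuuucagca
Mir154: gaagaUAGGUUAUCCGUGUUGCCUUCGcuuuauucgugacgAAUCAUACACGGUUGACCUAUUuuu
Mir382: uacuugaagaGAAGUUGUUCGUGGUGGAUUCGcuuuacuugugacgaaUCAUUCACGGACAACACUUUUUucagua
Mir673: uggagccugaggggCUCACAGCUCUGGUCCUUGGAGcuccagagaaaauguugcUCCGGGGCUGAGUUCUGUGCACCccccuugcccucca

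All 49 members had a mature sequence in RefSeq, 94 strands in all, which carry 85 distinct seeds. Of these seeds 9 are shared by 2 or more members, so the members do not have 1 seed in common. The strands below belong to members described in the results or to their seed partners, with the seed in capitals. The 3′ strands of Mir379 and Mir411 share 1 seed, and the 5′ strand of Mir379 shares its seed with that of Mir1193.
miR-379-3p: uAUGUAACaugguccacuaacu
miR-411-3p: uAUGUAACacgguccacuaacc
miR-379-5p: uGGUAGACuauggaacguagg
miR-1193-5p: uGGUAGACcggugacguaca
miR-543-3p: aAACAUUCgcggugcacuucuu
miR-495-3p: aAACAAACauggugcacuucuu
miR-300-3p: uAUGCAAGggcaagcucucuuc
miR-381-3p: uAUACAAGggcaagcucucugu
miR-369-3p: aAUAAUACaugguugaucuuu
miR-410-3p: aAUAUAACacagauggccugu

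Array medians on the log2 scale lay between 6.03 and 6.06 for mouse 2 h arrays, 5.92 and 5.96 for mouse 6 h arrays, 6.67 and 6.75 for rat 2 h arrays and 5.82 and 5.87 for rat 6 h arrays. Each pMCAO group was therefore set against the sham group of its own time. The members' mean level over the 12 arrays of a species ran from 3.96 to 9.39 in mouse and from 2.30 to 7.75 in rat, where 35 of 41 lay below the median symbol at 6.86. The files give no detection calls, so a low level is given as measured. Neuronal markers averaged 10.4 to 10.8 in every mouse array and 11.1 to 11.9 in every rat array.

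A single array stood apart in the members, while on the first principal component over all genes it lay on the side of the pMCAO arrays. That component held 45.9% of the variance, and whether genes outside the set share the array's deviation was not tested. In rat pMCAO replicate 3 at 6 h the members had a median difference of 0.17 from the mean of the 3 sham arrays, against -0.97 and -1.10 in pMCAO replicates 1 and 2. In it 21 of 41 members read above every sham array and 6 below, whereas in each of the other 2 pMCAO arrays 37 read below. The shares of all symbols that did so in these arrays were not computed. Mir493, a microRNA gene of the locus outside the list, read 7.01, 6.20 and 7.91 in the pMCAO arrays, against 7.79, 7.92 and 7.62 in sham arrays. On the first principal component over all genes at that time, replicate 3 lay at 23.5, farther from the sham arrays at -18.7 to -14.5 than replicates 1 and 2 at 16.6 and 10.4. Its microglial markers were 0.33 below sham, between -0.54 and -0.27 in the other pMCAO arrays, and its striatal and neuronal markers were 0.04 and 0.00 from sham. Rat results are therefore given with and without it, and because the members themselves single it out, a value without it is no independent support.

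**Figure D1:**
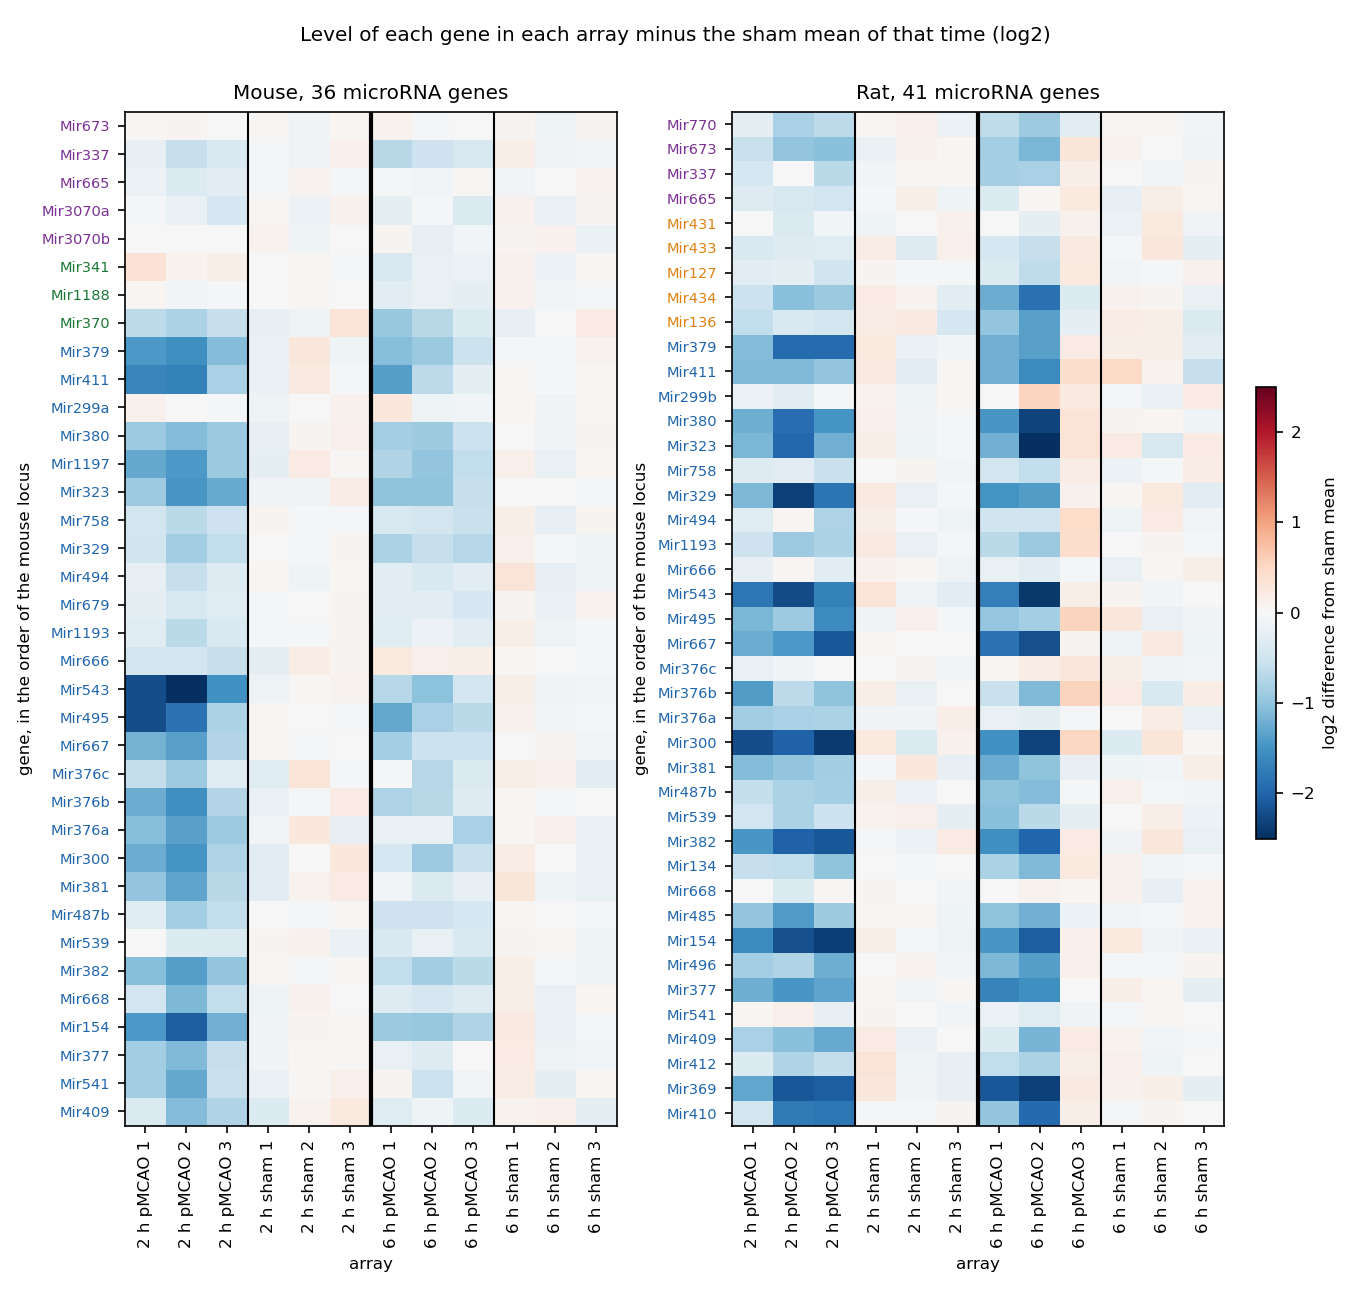
Level of each microRNA gene in each array minus the sham mean of the same time, on the log2 scale (blue lower, red higher), genes in the order of the mouse locus and arrays in columns, for mouse (36 genes) and rat (41 genes). The pMCAO columns are blue over most genes in both species, except rat 6 h pMCAO replicate 3, whose median difference from sham was 0.17.

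In mice at 2 h, the comparison behind the choice of genes, 33 of 36 members were lower after pMCAO than after sham surgery, as were 52.1% of all symbols, with a median log2 difference of -0.70. The same median was -0.01 over all 22180 symbols and -0.02 over 436 other Mir genes. Of the 36, 16 passed the threshold of limma's test (adjusted p under 0.05 over all symbols), all of them lower, while 0.149% of all symbols fell and 0.298% passed in either direction, and nothing is read from that count because it helped to choose the genes. In 28 of the 36 every pMCAO array lay below every sham array, a pattern shown by 8.39% of all symbols. Mir543, the member with the largest difference, read 6.01, 5.62 and 6.72 in pMCAO arrays and 8.11, 8.27 and 8.32 in sham arrays, a 4.34-fold difference (log2 -2.12 ± 0.22, SE). The groups are far apart and pMCAO replicate 2 was the lowest, as it was for most members.

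Mir495 read 4.33, 4.69 and 5.75 in mouse pMCAO arrays at 2 h and 6.57, 6.54 and 6.51 in sham arrays. Mir154 read 5.44, 4.80 and 5.66, against 6.77, 6.93 and 6.90 in sham arrays. Mir411 read 3.26, 3.23 and 4.10, against 4.74, 5.13 and 4.87 in sham arrays. For these 3 genes no pMCAO array reached a sham array, and Mir495 varied most among the pMCAO animals. Mir381, Mir758 and Mir487b had log2 differences of -0.997, -0.55 and -0.59, and Mir666 and Mir668 of -0.50 and -0.73. Only Mir341, Mir673 and Mir299a had differences above 0, of 0.20, 0.03 and 0.02. No call on a single gene is read here, because this comparison helped to choose the genes.

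In mice at 6 h, which used other animals, 14 of 36 members fell and 0 rose, where 4.23% of all symbols fell and 7.43% passed in either direction. Below 0 were 33 of 36, beside 53.6% of all symbols. The 14 were Mir337, Mir1188, Mir370, Mir379, Mir380, Mir1197, Mir323, Mir758, Mir329, Mir679, Mir667, Mir487b, Mir382 and Mir154, with log2 fold changes between -0.88 and -0.22. Over all 36 members the median was -0.39, beside -0.02 over all symbols and -0.04 over the 315 other Mir genes within the members' range of level, of which 29 fell and 5 rose. Mir154 read 5.57, 5.55 and 5.75 in pMCAO arrays and 6.72, 6.33 and 6.46 in sham arrays (log2 fold change -0.88 ± 0.18, SE, adjusted p = 0.0161). The ranges do not meet, and the pMCAO arrays differ from each other by less than the distance to sham.

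Mir323 averaged 5.83 ± 0.24 in mouse pMCAO arrays at 6 h and 6.69 ± 0.02 in sham arrays (SD, n = 3 each). Its log2 fold change was -0.86 ± 0.14 (SE, limma adjusted p = 0.00731), and all 3 pMCAO arrays (5.69, 5.69 and 6.11) lay under the sham arrays (6.71, 6.70 and 6.67). Mir379, the first hairpin of the long run, read 4.70, 4.85 and 5.24 after pMCAO and 5.74, 5.72 and 5.86 after sham surgery, with a fold change of -0.84 ± 0.16 (SE, adjusted p = 0.0114). Its groups do not overlap, and pMCAO replicate 3 came nearest to sham. Mir495 had the largest mean difference (-0.92) and did not pass (adjusted p = 0.0672), with 5.10, 5.56 and 5.69 after pMCAO and 6.48, 6.31 and 6.33 after sham surgery. Its groups do not overlap, and its pMCAO arrays spread more widely than those of Mir323. Mir543, the largest at 2 h, read 6.98, 6.68 and 7.23 after pMCAO and 7.85, 7.62 and 7.63 after sham surgery, which did not pass (-0.74, adjusted p = 0.0693). In 24 of 36 members every pMCAO array lay below every sham array, beside 14.6% of all symbols. The count of falls was 8 without sham replicate 1 or without sham replicate 3, and 10 or 11 without any other array. The shares of all symbols in these fits are not given here.

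Striatal projection neuron markers moved with the mouse 6 h comparison. Their mean level was 6.97 to 7.16 in pMCAO arrays and 7.23 to 8.42 in sham arrays, with sham replicate 2 the lowest sham array, and 2 of 6 fell. With that mean as a covariate 0 of 36 members passed in limma, with a median of -0.30. No pMCAO array reached a sham array in that mean, so in this fit the covariate and the surgery cannot be told apart. The share of all symbols passing in it is not given here. In the members sham replicate 2 had a median difference of -0.06 from the sham mean, and nothing is read from this 1 array. Microglial markers, at 7.08 to 7.26 in pMCAO arrays and 7.38 to 7.43 in sham arrays, fell in 2 of 5. Choroid plexus markers had a median log2 difference of 0.54, with 0 of 3 below 0 and 0 of 3 past the threshold in limma (0 at an unadjusted p under 0.05). Oligodendrocyte markers averaged 9.23 to 9.28 in pMCAO arrays and 8.95 to 9.19 in sham arrays, with a median log2 difference of 0.20 and 0 of 5 past the threshold in limma (4 at an unadjusted p under 0.05). Among astrocyte markers 1 of 6 rose, and among endothelial markers 1 of 5, where 3.21% of all symbols rose. The part of these cells in the members' falls was not tested.

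**Figure D2:**
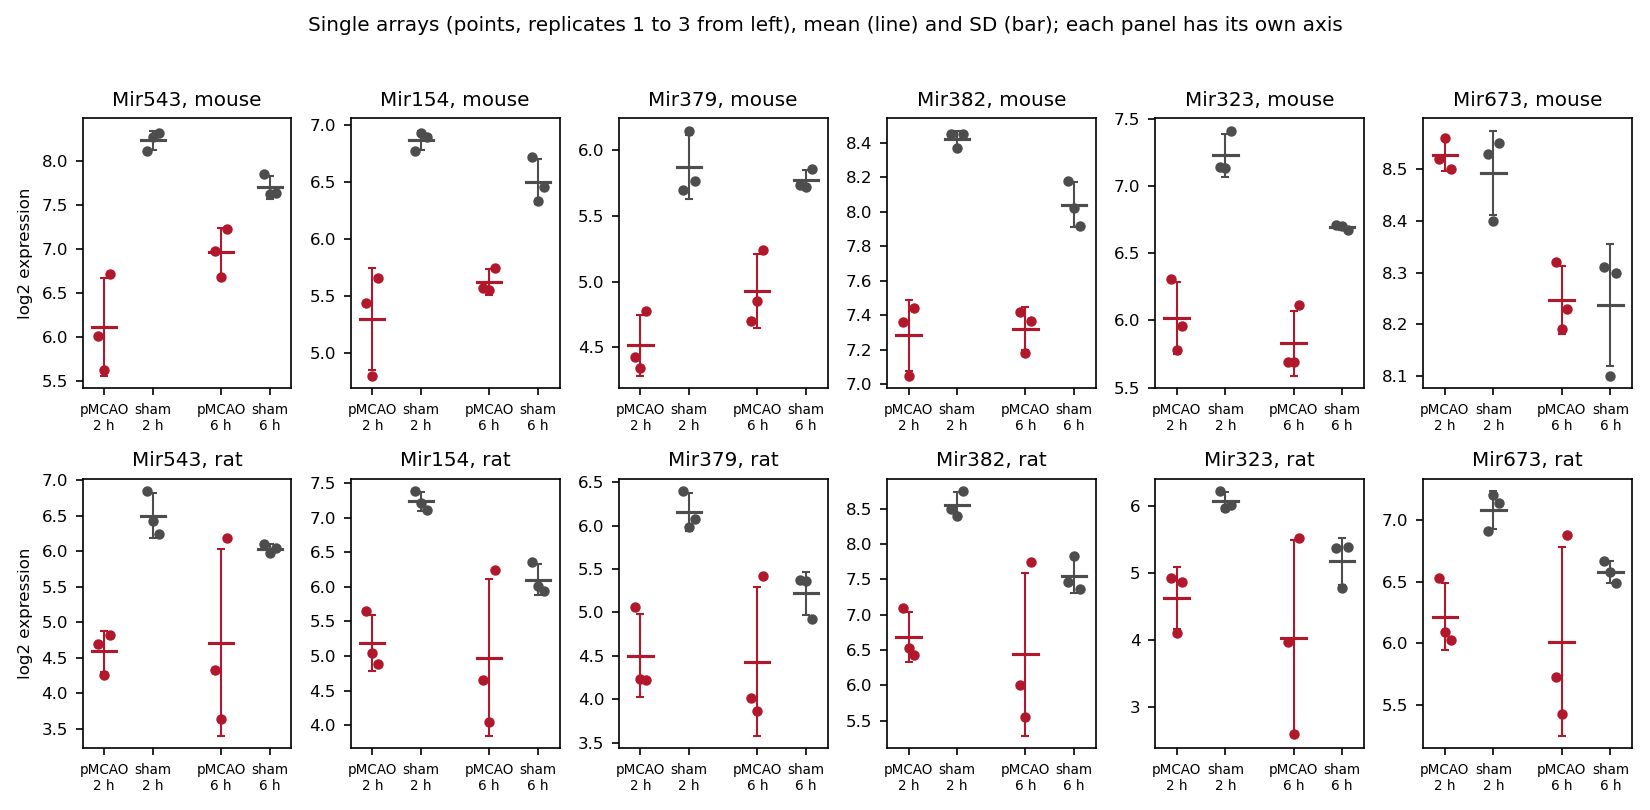
Log2 expression of 6 microRNA genes in single arrays (points, replicates 1 to 3 from left to right), with mean (line) and SD (bar), in mouse (top) and rat (bottom), pMCAO in red and sham in grey, each panel on its own axis. Mir543, Mir154, Mir379, Mir382 and Mir323 lie lower in pMCAO arrays, while Mir673 differs by 0.03 and 0.01 in mouse and by -0.87 and -0.57 in rat at 2 h and 6 h, and the high rat 6 h pMCAO point in each panel is replicate 3.

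In rats at 2 h all 41 members were lower after pMCAO than after sham surgery, with a median log2 difference of -0.84, and 1 fell past the threshold, where 0.033% of all symbols fell and 0.0661% passed in either direction. Below 0 were 51.2% of all symbols, and the median was -0.003 over all 18166 symbols and 0.01 over the 295 other Mir genes within the members' range of level, of which 0 passed (58 at an unadjusted p under 0.05). In 31 of 41 members every pMCAO array lay below every sham array, beside 7.57% of all symbols, and 30 had an unadjusted p under 0.05. Mir376a, the member that fell, had been seen in earlier results of these data. It read 3.01, 3.06 and 3.08 in pMCAO arrays and 3.80, 3.79 and 4.05 in sham arrays, a log2 fold change of -0.83 ± 0.10 (SE, adjusted p = 0.00897). Its arrays differ little within a group, and its level is among the lowest of the set. Its pMCAO values lie near the lowest values of the rat 2 h arrays, whose minima were 2.57 to 2.73. Whether the small spread comes from the low level was not tested.

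The largest mean differences in rat at 2 h belonged to members that did not pass. Mir300 read 4.28, 4.47 and 4.10 in pMCAO arrays and 6.73, 6.15 and 6.59 in sham arrays, a 4.62-fold difference (log2 -2.21 ± 0.51, SE, adjusted p = 0.235). Mir154 read 5.65, 5.05 and 4.88, against 7.39, 7.22 and 7.11 in sham arrays (-2.05 ± 0.41, adjusted p = 0.142). In both genes the groups are widely separated at 2 h. The fit takes its spread from all 12 rat arrays, among them the 6 h array that stands apart. Mir543 read 4.69, 4.26 and 4.82, against 6.85, 6.42 and 6.24 in sham arrays (-1.91, adjusted p = 0.262). Mir382 read 7.09, 6.53 and 6.43, against 8.49, 8.40 and 8.75 in sham arrays (-1.86, adjusted p = 0.202). No pMCAO array of either gene came within 1 log2 unit of its sham arrays. Mir379 read 5.06, 4.23 and 4.22, against 6.4, 5.98 and 6.08 in sham arrays. Mir134 read 6.20, 6.17 and 5.77, against 6.79, 6.76 and 6.79 in sham arrays. Both had pMCAO arrays below every sham array. Mir410, at the end of the run, read 7.17, 5.85 and 5.82, against 7.58, 7.59 and 7.69 in sham arrays. Mir127 read 7.07, 7.11 and 6.86, against 7.43, 7.33 and 7.30 in sham arrays. Their groups do not overlap either, with pMCAO replicate 1 of Mir410 nearest to sham. On the first principal component over all genes at that time pMCAO replicate 2 lay at 25.9, against 1.63 and 2.33 in replicates 1 and 3, and the members' median difference from sham was -0.82 in it, against -0.60 and -0.88.

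When rat 6 h pMCAO replicate 3 was left out of the fit, the 2 h means stayed as they were and 19 of 41 members fell at 2 h, where 0.248% of all symbols fell. A fit of the 6 rat arrays of 2 h alone called 17, and the share of all symbols called in that fit is not given here. Among the 19 were Mir300, Mir154, Mir543, Mir382 and Mir134, with adjusted p of 0.00229, 0.00229, 0.00242, 0.00229 and 0.0284 for these 5 genes in that order. Mir127, which lies antisense to Rtl1, stayed outside (log2 -0.34, adjusted p = 0.333). The call on Mir376a did not hold when sham replicate 3 was left out, and then 0 members passed.

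In rats at 6 h, 3 of 41 members fell and 0 rose, where 3.62% of all symbols fell and 6.47% passed in either direction. Below 0 were 38 of 41, beside 54.1% of all symbols, and the median was -0.61, beside -0.02 over all symbols. The 3 were Mir770, which lies within the Meg3 transcript, Mir434, which lies antisense to Rtl1, and Mir381 of the long run. Mir770 read 6.96, 6.70 and 7.33 in pMCAO arrays and 7.64, 7.64 and 7.53 in sham arrays (log2 fold change -0.61 ± 0.16, SE, adjusted p = 0.0478). Mir434 read 4.57, 3.95 and 5.47, against 5.92, 5.88 and 5.62 in sham arrays (-1.14 ± 0.29, adjusted p = 0.0386). Mir381 read 3.21, 3.44 and 4.25, against 4.34, 4.39 and 4.62 in sham arrays (-0.82 ± 0.21, adjusted p = 0.0429). In all 3 genes the pMCAO arrays stayed below the sham arrays, replicate 3 by the smallest distance. Each call was lost when any of the other 5 arrays of this comparison was left out, with 0 members passing. In 6 of 41 members every pMCAO array lay below every sham array, beside 14.8% of all symbols, and 17 had an unadjusted p under 0.05.

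Members with larger mean differences at rat 6 h that did not pass had replicate 3 at the sham level. Mir369 read 3.25, 3.02 and 5.58 in pMCAO arrays and 5.46, 5.51 and 5.11 in sham arrays (-1.41 ± 0.51, SE, adjusted p = 0.124). Mir667 read 5.95, 5.60 and 7.86, against 7.69, 8.02 and 7.68 in sham arrays (-1.33, adjusted p = 0.0961). Mir543 read 4.33, 3.63 and 6.18, against 6.10, 5.97 and 6.04 in sham arrays (-1.32, adjusted p = 0.113). In each, replicates 1 and 2 are well below every sham array and replicate 3 is above 2 or all of them. In 36 of 41 members replicates 1 and 2 were both below every sham array, and replicate 3 was the highest pMCAO array in 39 of 41. The shares of all symbols with these patterns were not computed, so both counts are descriptions.

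Without replicate 3, 29 of 41 members fell at rat 6 h, where 2.34% of all symbols fell, and their median was -0.95. Values ran from -2.23 for Mir369 to 0.26 for Mir299b, and 38 of 41 were below 0. Then Mir379 fell by 1.28, Mir410 by 1.47, Mir134 by 0.95 and Mir127 by 0.49 on the log2 scale, with adjusted p of 0.0129, 0.0438, 0.00315 and 0.0284 in that order. With all arrays these 4 had values of -0.79, -0.92, -0.55 and -0.25 and none passed. Mir134 read 5.43, 5.12 and 6.46 in pMCAO arrays and 6.33, 6.15 and 6.19 in sham arrays. Mir410 read 5.76, 4.80 and 6.91, against 6.69, 6.81 and 6.74 in sham arrays. Mir127 read 6.26, 5.96 and 6.85, against 6.54, 6.56 and 6.71 in sham arrays. In all 3 genes replicate 3 was above every sham array and the other pMCAO arrays below.

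**Figure D3:**
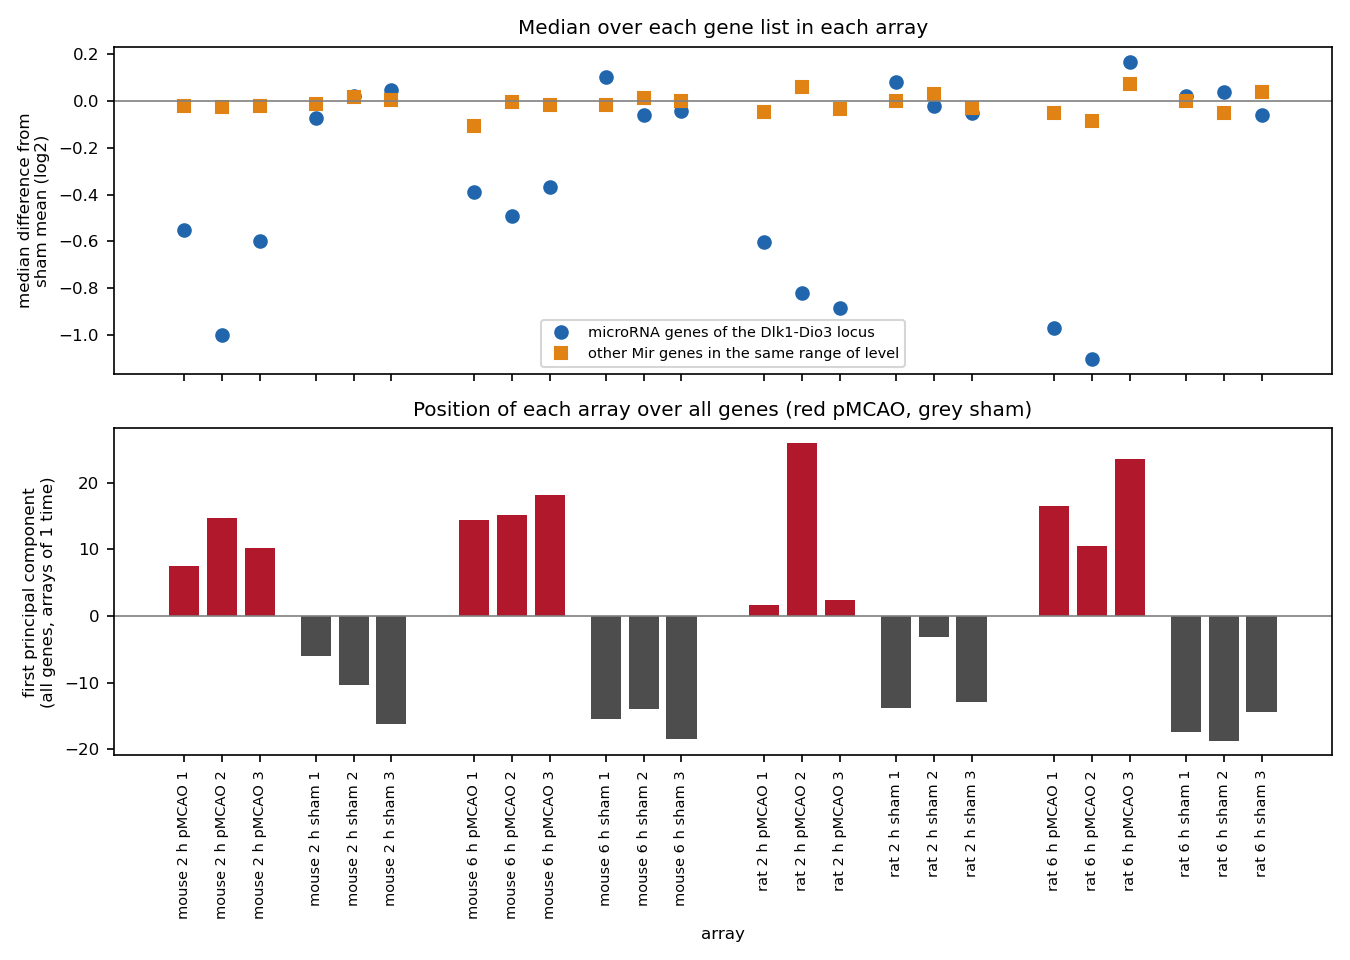
Top: median over the microRNA genes of the locus (blue) and over the other Mir genes in the same range of level (orange) of each array's difference from the sham mean, in log2 units. Bottom: first principal component of each array over all genes, computed for the arrays of 1 species and time, pMCAO in red and sham in grey. The locus genes are between -1.10 and -0.37 in 11 of 12 pMCAO arrays and at 0.17 in rat 6 h pMCAO replicate 3, while the first component of that array, 23.5, is the highest of its time.

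**Figure D4:**
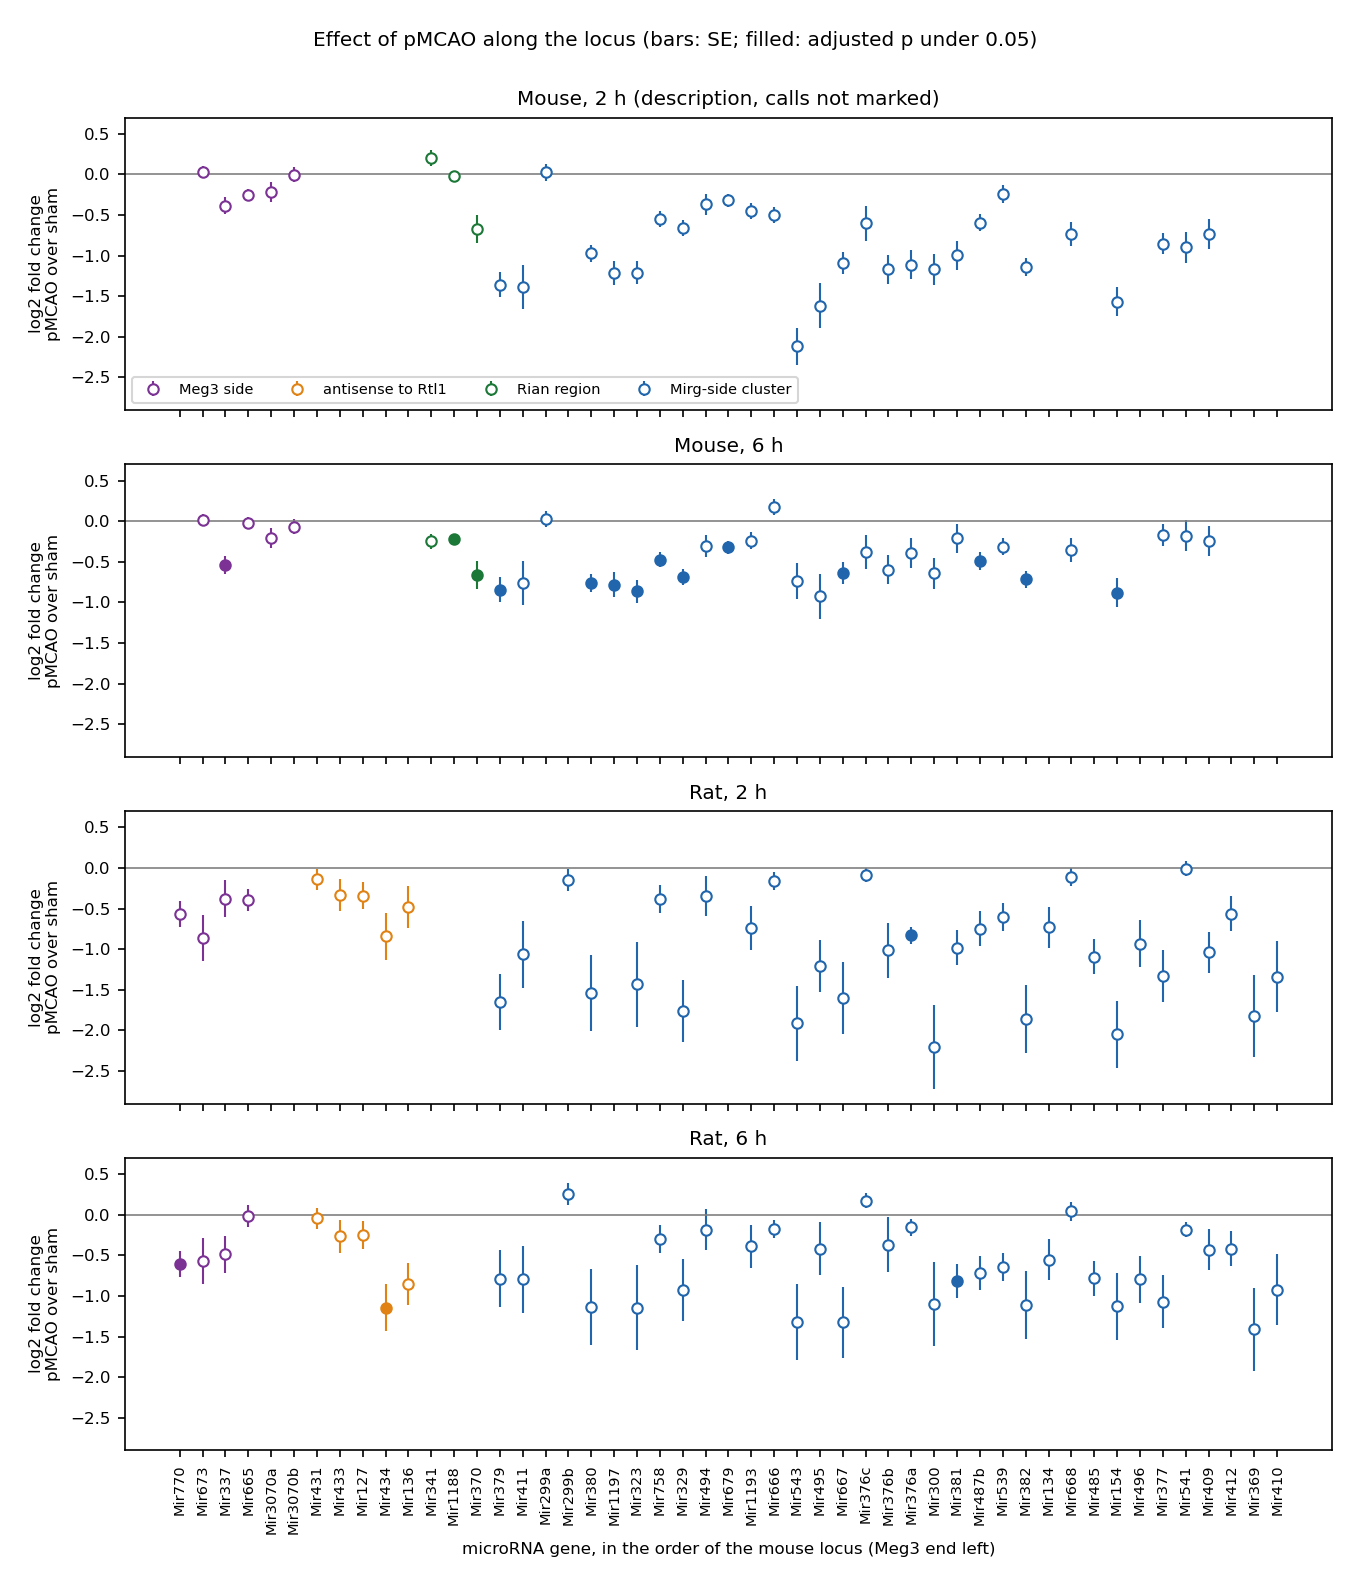
Log2 fold change of pMCAO over sham (points) with SE (bars) for each microRNA gene in the order of the mouse locus, coloured by position, with filled points past an adjusted p of 0.05 and calls not marked in mouse at 2 h. Values are lowest in the cluster on the Mirg side, with medians of -0.94, -0.48, -1.03 and -0.75 from top to bottom.

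Along the locus, the members on the Mirg side, from Mir379 to Mir410, held the largest differences. Their median log2 difference in mouse was -0.94 at 2 h and -0.48 at 6 h over 28 genes, and in rat -1.03 and -0.75 over 32 genes. On the Meg3 side it was -0.21 and -0.07 over 5 mouse genes, and -0.48 and -0.53 over 4 rat genes. The 5 rat genes antisense to Rtl1 had medians of -0.34 and -0.27, and the 3 mouse genes of the Rian region -0.02 and -0.25. Of the 14 mouse genes that fell at 6 h, 11 were on the Mirg side, 2 in the Rian region (Mir370 and Mir1188) and 1 on the Meg3 side (Mir337). Differences between the positions were not tested.

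The run on the Mirg side was not uniform. Next to Mir543 and Mir495, Mir666 had a value of -0.50 in mouse at 2 h and 0.18 at 6 h, and in rat -0.16 and -0.17. Between Mir411 and Mir380, which had values of -1.38 and -0.97 in mouse and -1.06 and -1.54 in rat at 2 h, lie Mir299a and, on the opposite strand in RefSeq, Mir299b. Mir299b in rat had -0.15 and 0.25, and the brighter Mir299a cluster in mouse had 0.02 and 0.03. Which strand a cluster reads is not given in the files used here, so these values need not be those of a hairpin of the run. Mir376c, at a level of 2.30 on the rat array the lowest member, had values of -0.09 and 0.17 there. Of the 4 mouse members with a second cluster, these gave other values than the brighter one: -0.54 and -0.05 for Mir376a, -0.50 and -0.41 for Mir380, -0.29 and -0.33 for Mir299a, and -0.05 and -0.24 for Mir409, at 2 h and 6 h.

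Of the long host transcripts Meg3 and Rian had clusters of their own, and neither passed, while Mirg was read only in clusters shared with members. Rian had log2 fold changes of 0.11 at 2 h and -0.003 at 6 h in mouse (adjusted p = 0.735 and 0.983), and Meg3 0.18 and -0.04 in mouse (0.549 and 0.792) and 0.04 and 0.19 in rat (0.937 and 0.136). Which strand this mouse Meg3 cluster reads is not known. A brighter mouse cluster, shared by Meg3, Mir1906-1 and Mir1906-2, had 0.04 and -0.02. The paternally read Dlk1 and Dio3 had values between -0.13 and 0.05 in both species, and Dio3os 0.07 and 0.16 in mouse, with none past the threshold. Of the genes flanking the locus, 0 of 7 in mouse and 0 of 6 in rat passed in limma at either time (0 in each species at 2 h and 1 in each at 6 h had an unadjusted p under 0.05). Among 6 other microRNA genes of the locus on the mouse array, Mir654 was 0.65 log2 units lower after pMCAO at 2 h and Mir493 fell by 0.47 at 6 h (adjusted p = 0.0293). No test compared the hosts with the hairpins directly.

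The 8 shared mouse clusters read a member together with Meg3, Mirg or Rtl1. Rtl1 is not the host of its members, which lie antisense to it. The cluster of Rtl1 and Mir434 read 6.46, 6.09 and 6.18 in pMCAO arrays at 2 h and 7.30, 7.85 and 7.62 in sham arrays (log2 -1.35), and had -0.61 at 6 h (adjusted p = 0.119 over all clusters). That of Rtl1, Mir136 and Mir3071 had -1.30 and -0.69, and that of Mir485 and Mirg -1.25 and -0.61, the last with an adjusted p of 0.0477 at 6 h. These 3 clusters were as far below sham as members with clusters of their own. The cluster of Meg3 and Mir770 had -0.09 and -0.10, that of Rtl1, 6430411K18Rik, Mir433 and Mir127 had -0.20 and -0.17, and that of Rtl1 and Mir431 had -0.31 and -0.19. The cluster of Mir134 and Mirg had -0.54 and -0.26 and that of Mirg, Mir369, Mir410 and Mir412 had -0.54 and -0.10, and neither passed at 6 h (adjusted p = 0.379 and 0.691). Which gene of a shared cluster gives the signal cannot be told from these values.

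**Figure D5:**
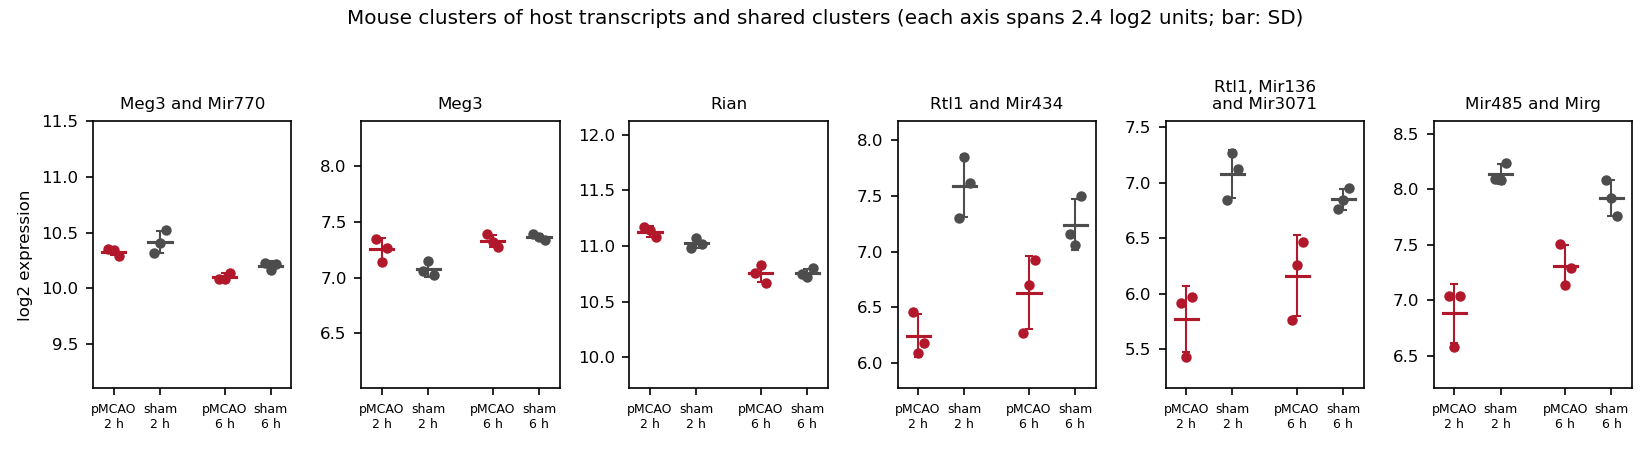
Log2 expression in the 12 mouse arrays (points, with mean and SD) of 3 host clusters, with Meg3 and Mir770, Meg3 and Rian from left, and of 3 shared clusters, pMCAO in red and sham in grey, each axis spanning 2.4 log2 units. Meg3 and Rian differ by 0.18 or less between the groups, while the 3 shared clusters lie 1.25 to 1.35 lower after pMCAO at 2 h.

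From 2 h to 6 h the difference from sham came nearer to 0 in 28 of 36 mouse members and 32 of 41 rat members. The shares of all symbols that did so were not computed, so these counts are descriptions. In rat 0 of 41 differed between the times in limma (lowest adjusted p = 0.0948, 1 at an unadjusted p under 0.05), beside 0.231% of all symbols. Without rat 6 h pMCAO replicate 3, 12 of 41 rat members were nearer to 0 at 6 h, and again 0 passed (lowest adjusted p = 0.158, 4 at an unadjusted p under 0.05), beside 0.264% of all symbols. The change over time in mouse uses the 2 h contrast behind the choice of genes and was not tested.

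Of the 28 members measured in both species, 24 were below 0 in all 4 comparisons, and in 16 every pMCAO array lay below every sham array in mouse at both times and in rat at 2 h. Across these 28 the log2 fold changes of mouse and rat correlated with r = 0.65 at 2 h and 0.57 at 6 h (0.62 without rat 6 h pMCAO replicate 3), across genes that share arrays and neighbouring hairpins. The mouse 2 h values enter the first r and both counts, and since they chose the members these are descriptions only. The shares of all symbols with the patterns of the 2 counts were not computed. The difference between species at 6 h passed in 0 of 28 (lowest adjusted p = 0.207, 5 at an unadjusted p under 0.05), beside 2.28% of 14193 symbols.

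Without rat 6 h pMCAO replicate 3, all 10 mouse members that fell at 6 h and were measured in rat were among the rat falls, 100% of these mouse calls and 52.6% of the 19 rat calls measured in mouse. They were Mir154, Mir323, Mir329, Mir337, Mir379, Mir380, Mir382, Mir487b, Mir667 and Mir758. With all arrays the rat falls were Mir381, which did not pass in mouse at 6 h, and Mir770 and Mir434, which lacked a mouse cluster of their own. The array was left out because the members read high in it, so this overlap is no independent support. No such share over all symbols is given here. Without that array the species difference passed in 8 of 28, beside 1.91% of all symbols, each with the lower value in rat. Mir377 had -1.60 in rat and -0.17 in mouse (adjusted p of the difference = 7.89e-05), Mir667 -2.02 and -0.63 (0.0108) and Mir673 -1.0 and 0.01 (0.00937). Mir543, Mir382, Mir380, Mir381 and Mir300 were the others. Leaving the array out moved the members' rat 6 h median from -0.61 to -0.95, so neither this count nor its direction is independent support. With all arrays the lowest adjusted p of the species difference among members was 0.207.

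Of 14 measured biogenesis genes, 0 passed in mouse at either time (0 and 5 at an unadjusted p under 0.05) and 0 in rat at 2 h (1). At rat 6 h 3 of 14 fell, where 3.62% of all symbols fell: Dgcr8, the partner of Drosha, by 0.61 (adjusted p = 0.00126), the exporter Xpo5 by 0.33 (0.0198) and the Argonaute Ago1 by 0.34 (0.0199) on the log2 scale. Among Mef2a, Mef2c, Mef2d, Limk1, Pum2 and Sv2a, transcription factors of the cluster and known or proposed targets of its microRNAs, 0 of 6 passed in mouse and 0 of 5 in rat (in each, 0 at 2 h and 1 at 6 h had an unadjusted p under 0.05). Limk1 had values of -0.03 and -0.02 in mouse and -0.09 and 0.30 in rat (adjusted p = 0.0568 for the last). Another imprinted run of microRNA genes, within Sfmbt2, had 0 of 24 mouse genes past the threshold at each time, with medians of 0.07 and 0.01 (2 and 1 at an unadjusted p under 0.05).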

How the data were processed

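The values are log2 expression as the authors deposited it, to 2 decimals, in 1 table of 12 arrays for mouse and 1 for rat. Oligo and limma were used by the authors, per the submitters' processing notes, which name no version. How the background was corrected and the arrays normalized is not given in the sources used here. Groups came from the sample titles, because the characteristic for time is 2 h throughout. Where a symbol had several clusters of its own, the brightest was taken (by the mean of the 12 arrays). A model of group means was fitted to the 12 arrays of a species (limma 3.58.1, R 4.3.3), which moderated the spread with eBayes, and adjusted two-sided p-values over all symbols (Benjamini-Hochberg, threshold 0.05, no fold limit). Species differences used the fitted effects and Welch-Satterthwaite degrees of freedom. The scripts were tested on simulated data. An exact permutation test of 3 against 3 arrays has 0.1 as its smallest two-sided p, so the tests of single members come from that model. The number of arrays limits the precision. The p-values set a difference against the spread between the animals sampled, pooled over all groups of a species and moderated over genes.

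The members and lists were chosen with earlier results of these data known. Values per array are given for the 4 members with the largest difference in each comparison, for members past the threshold in rat, and for Mir127, Mir134, Mir379 and Mir410, and further genes named were chosen after their values were seen. Alternatives were another normalization or centring, other fits, other clusters, a level filter, a striatal covariate and leaving out each array. Leaving rat 6 h pMCAO replicate 3 out of the rat 2 h, time and species results was chosen after seeing the data. Sequences and gene order are RefSeq's for mouse (GRCm38.p6), with no coordinates taken from the array files. Rat sequences were not used here.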

Additional observations from a re-analysis of the deposited data

How the results depend on the processing

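The direction of the members' median held in every alternative run for each comparison. It ranged from -0.79 to -0.55 (mouse 2 h), from -0.46 to -0.30 (mouse 6 h), from -0.89 to -0.585 in rat at 2 h and from -0.95 to -0.39 in rat at 6 h. Counts past the threshold moved more. Unless given above, the share of all symbols passing in an alternative is not given here. A change in a count need therefore not be particular to the members. In mouse at 2 h the 16 became 3 with the 6 arrays of the time alone and 8 with all clusters tested, and 8 to 14 when 1 array was left out, where the median was -0.79 to -0.56. It was 8 without pMCAO replicate 2, sham replicate 2 or sham replicate 3, 10 without pMCAO replicate 1 or sham replicate 1, and 14 without pMCAO replicate 3. Among symbols above the median level the median was -0.55. In mouse at 6 h the 14 became 8 to 11 when 1 array was left out. With the striatal covariate, which separates pMCAO from sham arrays there, the count was 0 and the median -0.30. In rat at 2 h the 1 became 12 with centring on other Mir genes, 17 with the 6 arrays alone, 11 with array weights and 19 without rat 6 h pMCAO replicate 3. It became 0 with all clusters tested, with the striatal covariate and among symbols above the median level (median -0.585), and 0 to 1 when 1 array was left out. In rat at 6 h the 3 became 5 with median centring and with trended, robust moderation, 6 with centring on other Mir genes and 12 with array weights. It became 0 with the 6 arrays alone, with all clusters tested and with the striatal covariate, and 0 to 29 when 1 array was left out. The species difference of 0 became 8 without rat 6 h pMCAO replicate 3, and the rat change over time stayed at 0 in the alternatives run for it. The cause of these changes was not tested.

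With the replicate numbers as a block the counts were 14, 14, 1 and 2 in mouse at 2 h and 6 h and rat at 2 h and 6 h. Same-numbered arrays correlated with r from -0.12 to 0.33 in their deviations, so the numbers were not taken as pairs.

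Values of single members that changed sign were between -0.21 and 0.04 in the fit as reported, and none had passed the threshold. Centring on other Mir genes gave 0.062 for Mir3070b and 0.045 for Mir1188 (mouse 2 h), 0.053 for Mir665 and 0.0067 for Mir3070b (mouse 6 h), 0.013 for Mir376c and 0.087 for Mir541 (rat 2 h), and 0.10 for Mir431 and 0.13 for Mir665 (rat 6 h). Mir3070b had 0.0079 with quantile normalization and 0.013 with array weights (mouse 2 h). As the mean of its clusters Mir299a had -0.135 and -0.15 at mouse 2 h and 6 h, and Mir673 had -0.013 with median centring (mouse 6 h). The striatal covariate gave 0.067 for Mir665, 0.044 for Mir541 and 0.039 for Mir3070a (mouse 6 h). When 1 array was left out, mouse 2 h values ran from -0.063 to 0.042 for Mir3070b, -0.04 to 0.08 for Mir299a and -0.013 to 0.062 for Mir673. Mouse 6 h values ran from -0.058 to 0.047 for Mir673, -0.057 to 0.023 for Mir665, -0.15 to 0.0067 for Mir3070b and -0.088 to 0.10 for Mir299a. Rat 2 h values ran from -0.08 to 0.085 for Mir541 and -0.18 to 0.018 for Mir668, and rat 6 h values from -0.12 to 0.072 for Mir431, -0.14 to 0.14 for Mir665 and -0.058 to 0.092 for Mir668.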

Other observations

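Members were binned by the base composition of their hairpins. RefSeq gave a hairpin to 48 of the 49, with a GC content from 29.1% to 70.2%. At 2 h the median log2 difference was -0.99 over 16 mouse members under 45% GC, -0.59 over 11 members from 45 to 55% and -0.12 over 8 members at 55% or more. In rat, read with the mouse hairpins, the medians at 2 h were -1.11 over 20 members, -0.80 over 12 and -0.45 over 8. At 6 h they were -0.50, -0.49 and -0.24 in mouse and -0.81, -0.60 and -0.41 in rat. Other Mir genes outside mouse chromosome 12 had medians between -0.08 and 0.07 in every bin, comparison and species. Hairpin GC and the mouse 2 h difference correlated with r = 0.42 over 35 members, which share arrays and a locus, and r was 0.13 over the other Mir genes. The mouse 2 h differences chose the members, so that r is a description only. In the comparisons not used for the choice r was 0.26 at mouse 6 h, 0.22 at rat 2 h and 0.078 at rat 6 h in the members, and 0.12, 0.24 and 0.28 in the other Mir genes. The relation was not tested.

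Small nucleolar RNA genes moved the other way in mouse at 6 h. Of 73 Snord and Snora genes, which guide chemical changes of ribosomal RNA, 31 rose and 0 fell, where 3.21% of all symbols rose, with a median log2 fold change of 0.35. At 2 h 0 of 73 passed in limma (3 at an unadjusted p under 0.05), with a median of 0.03.

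Of 5 microglial markers 2 fell in each species at 6 h, where 4.23% of all symbols fell in mouse and 3.62% in rat. Below 0 were 4 of 5 in mouse and 5 of 5 in rat, with medians of -0.21 and -0.34.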
